A study of Mus musculus with 6 samples.

Results

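The SLC25 genes encode the mitochondrial carriers, and they were followed here in left ventricles of Glut1-TG and wild-type (WT) mice. A gene was included when the annotation of the array held probe sets with exactly 1 gene symbol and that symbol began with Slc25a. The rule found 44 genes with 93 probe sets among 18193 genes of the array. For each gene the probe set with the brightest mean log2 signal was used, and 40 of the 44 were bright enough to be tested, among 13178 genes in all. Both groups were male FVB mice, 11 to 12 weeks old by the labels, kept on standard chow, with 3 WT and 3 Glut1-TG hearts on 1 Affymetrix array each. Glut1-TG mice carry human Glut1, the insulin-independent glucose transporter, under the alpha-myosin heavy chain promoter, which is active in cardiomyocytes. WT mice carry no transgene. The comparison asked which carriers differ in a heart with raised glucose entry.

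Mitochondrial carriers are small proteins of the inner membrane that exchange metabolites between the matrix and the cytosol. They move ADP and ATP, phosphate, the acids of the citrate cycle, amino acids, acylcarnitines, nucleotides and cofactors. In the heart, which makes nearly all of its ATP in mitochondria, the ATP/ADP and phosphate carriers serve energy supply, and the aspartate/glutamate and oxoglutarate/malate carriers form the membrane part of the malate-aspartate shuttle that brings the electrons of cytosolic NADH into the matrix.

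The measured difference between the groups was small for most carriers, and the larger values lay on both sides of 0. Of the 40 carriers tested, 1 rose in Glut1-TG hearts by limma at an adjusted p under 0.05 over all genes (0.258% of all genes rose), and 0 fell (0.599% of all genes fell). At an unadjusted limma p under 0.05, 6 were higher and 2 were lower (5.47% and 5.81% of all genes). After Benjamini-Hochberg adjustment the methods' t-test called 0 carriers and 1 gene of all 13178. The first count therefore depends on the test used and rests on 1 gene. At the thresholds of the study, a minimum fold change with an unadjusted p under 0.05 by the methods' t-test, 4 were higher and 2 were lower (3.21% and 2.65% of all genes). The 3 Glut1-TG signals all lay above the 3 WT signals for 6 carriers and all below them for 2 (8.67% and 8.77% of all genes). The shares of carriers that were higher, 2.5%, 15%, 10% and 15% under these 4 rules, were above those of all genes, but they rest on 1 to 6 genes. Without 1 array the limma count was 0, or 1 without Glut1-TG array 3, which was then Slc25a12, and the counts at the study's thresholds ran from 1 to 5 higher and from 1 to 3 lower. With each array centred on its cardiomyocyte markers, 9 were higher and 0 lower at the study's thresholds, beside 9.99% and 0.895% of all genes, since this scaling moves every gene upward.

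The median log2 fold change (Glut1-TG minus WT) over the 40 carriers was -0.002, beside 0.017 over all genes tested. Their middle 50% lay between -0.18 and 0.21, with 21 carriers below 0 and 19 above. The median size of the change, regardless of sign, was 0.19 for the carriers and 0.18 for all genes. In 37 of the 40 the change was under 0.5 on the log2 scale, and in 14 the 95% confidence interval lay wholly between -0.5 and 0.5. The standard error (SE) of a change ran from 0.08 for bright carriers to 0.43 for dim ones.

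**Figure D1:**
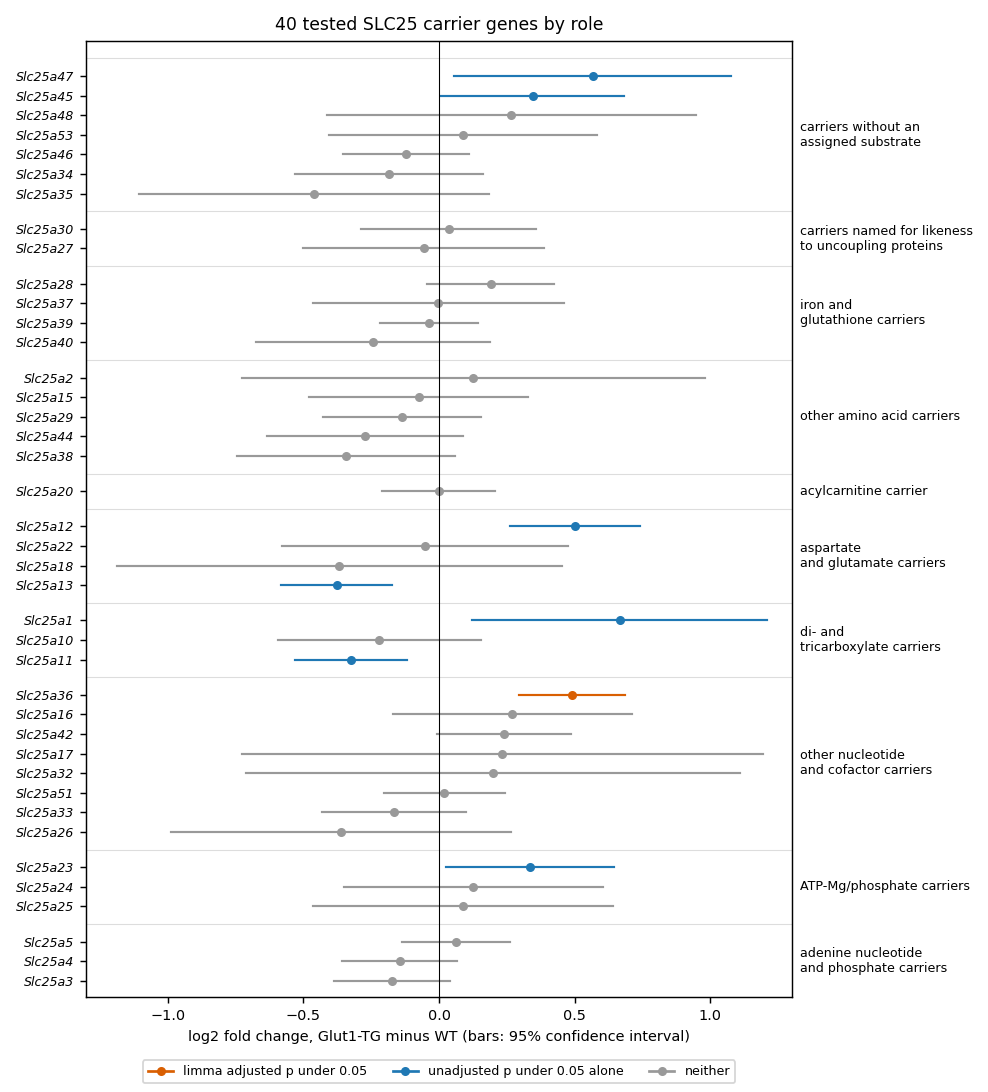
Log2 fold change of the 40 tested carriers (x axis, Glut1-TG minus WT, 3 arrays each), grouped by role, with the 95% confidence interval from limma as bars. Slc25a36 (orange) has an interval of 0.30 to 0.68 and passed the adjusted threshold, 7 carriers (blue) passed the unadjusted one alone, and the other 32 (grey) passed neither.

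Some facts of the arrays bear on these values. The 14 cardiomyocyte markers, which report the labelled tissue, summed to a signal of 547900 to 666800 in WT and 515400 to 546700 in Glut1-TG arrays, 14 of 14 had a log2 fold change below 0 (median -0.19) and 0 passed limma. In whole tissue, fewer cells of a type and less RNA per cell cannot be told apart. These markers are also bright, with mean WT signals of 14600 to 57500. Quantile normalization moved 2 similarly bright carriers, Slc25a4 from -0.15 to 0.05 and Slc25a3 from -0.17 to 0.01. Whether the scaling of bright signals has a part in the marker values was not tested. The 6 adipocyte markers on the array had a summed signal of 1502 to 1624 in WT and 1920 to 2203 in Glut1-TG arrays. Cidea made up the larger share and alone passed limma (means 996 in WT and 1570 in Glut1-TG, log2 fold change 0.65, adjusted p = 0.031). Retn had -0.04. The other 4 were under the filter: Adipoq and Lep had lower means in Glut1-TG (79 to 58.7 and 102 to 53.8), Cidec and Ucp1 higher ones (53.3 to 61.3 and 24.7 to 43.9). Of 6 atrial markers, Myl7 and Myl4 rose, Nppa, Nr2f2 and Tbx5 had log2 fold changes of -0.07, -0.03 and -0.09, and Sln, under the filter, had signals of 113.5 to 116.8 in WT and 39.4 to 65.3 in Glut1-TG hearts. The atrial, fibroblast, endothelial, smooth muscle, macrophage and erythroid sums overlapped between the groups. The part of these shifts in the carriers' values was not tested. Centring each array on its cardiomyocyte markers adds 0.19 to every log2 fold change, so it draws negative values toward 0 or past it and enlarges positive ones. It moved the median of all genes from 0.017 to 0.20 and of the carriers from -0.002 to 0.18, and the genes called by limma from 79 lower and 34 higher to 30 lower and 70 higher. Glut1-TG array 1 had a median signal of 213 and the other 5 arrays 171 to 187. The mouse Slc2a1 probe set, designed on the mouse gene and so no check of a human transgene, gave signals of 526.7, 408.6 and 532.9 in WT and 851.1, 753.1 and 757.2 in Glut1-TG hearts (adjusted p = 0.11, limma).

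Signals of the carriers spanned the range of the array. Mean WT signals were over 10000 for 4 carriers (Slc25a3, Slc25a4, Slc25a5 and Slc25a11), between 1000 and 10000 for 14, and lower for the other 22 that were tested. Probe sets differ in how strongly they bind, so this order is one of signals and not of RNA amounts.

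**Figure D2:**
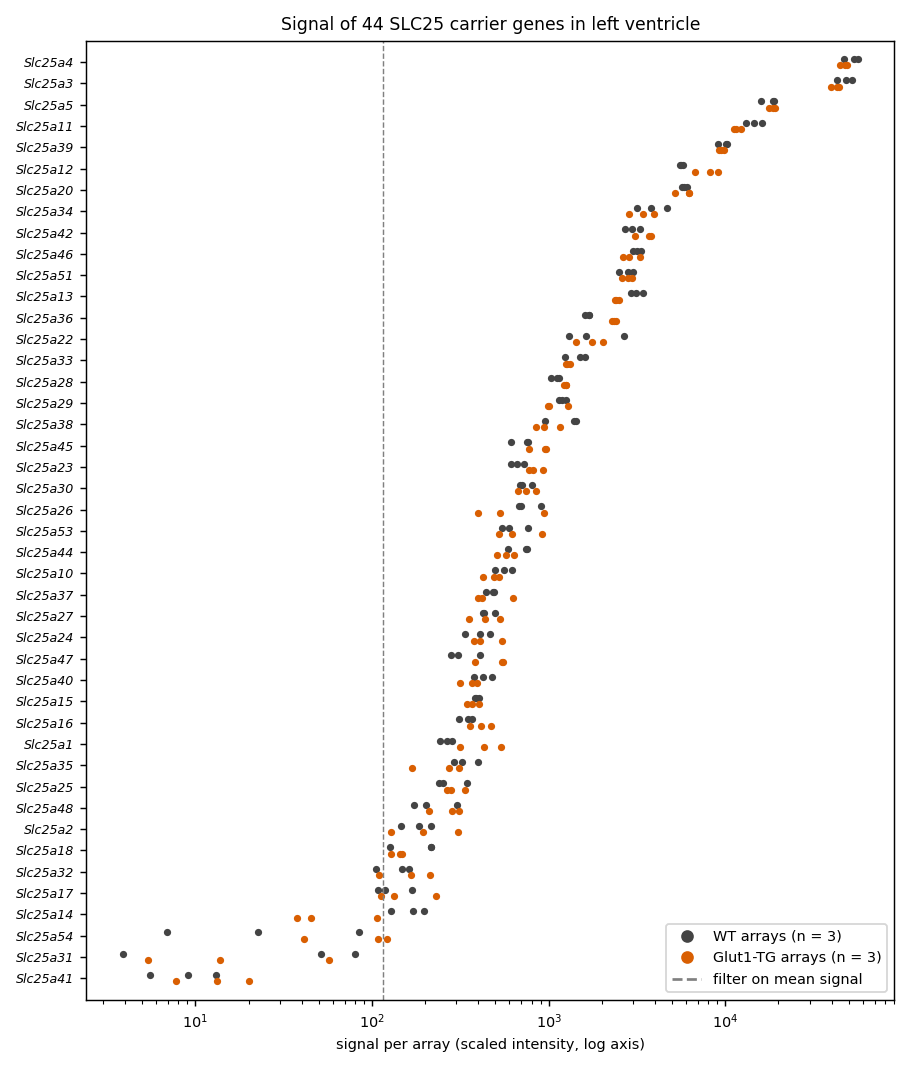
Signal of the 44 carriers in each of the 6 arrays (x axis, scaled intensity on a log axis; WT dark grey, Glut1-TG orange), ordered by mean, with the filter at a signal of 115 as a dashed line. The 4 carriers at the bottom lie under the filter and were left out of the main test, and the groups lie close together for most of the others.

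The carrier that rose was Slc25a36, one of a pair of pyrimidine nucleotide carriers that supply the matrix with precursors for mitochondrial DNA and RNA. Its signal was 1701.3, 1615.9 and 1682.9 in WT and 2394.7, 2293.3 and 2332.5 in Glut1-TG hearts. All Glut1-TG arrays lay well above all WT arrays and each group was tight, with means of 1667 ± 44.9 and 2340 ± 51.1 (SD, n = 3). The log2 fold change was 0.49 (SE 0.09, 95% confidence interval 0.30 to 0.68, adjusted p = 0.039, limma). Further probe sets of Slc25a36 had 0.30 (559.8, 616.6 and 616.2 in WT, 812.9, 686.6 and 703.9 in Glut1-TG hearts) and 0.56 (359.9, 303.9 and 262.1 against 367.7, 518.2 and 479.1). In both, each Glut1-TG array was above each WT array, but neither passed limma over probe sets (adjusted p = 0.51 and 0.43). In that fit over probe sets, the one used for Slc25a36 had an adjusted p of 0.054 and also missed the threshold. The call was a narrow one: the adjusted p was 0.064 without Glut1-TG array 1, 0.094 without array 2 and 0.11 without array 3, and 0.12, 0.17 and 0.17 without WT array 1, 2 or 3. It was also 0.15 with all probe sets of a gene averaged (log2 fold change 0.45) and 0.26 with no intensity trend in the variance. Slc25a33, the other carrier of the pair, had a log2 fold change of -0.17 (adjusted p = 0.64).

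The bases before the start of Slc25a36 are shown because it is the carrier past the test. Set beside them are those of Slc25a12 and Slc25a13, one of the related pairs with log2 fold changes of opposite sign, with groups apart in each. They are the 250 bases upstream of the RefSeq start, from the GRCm38.p6 build, and all 3 genes lie on the minus strand, at chr9:97111042-97111291, chr2:71367756-71368005 and chr6:6217174-6217423. Capitals mark the E box CACGTG, an element read by several factors such as USF, and the cAMP response element TGACGTCA, read by the CREB family.
Slc25a36: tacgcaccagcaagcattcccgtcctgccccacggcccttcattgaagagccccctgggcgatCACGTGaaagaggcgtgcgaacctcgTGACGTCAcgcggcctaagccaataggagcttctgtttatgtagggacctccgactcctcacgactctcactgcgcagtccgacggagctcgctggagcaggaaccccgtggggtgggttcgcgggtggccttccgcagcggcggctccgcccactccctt
Slc25a12: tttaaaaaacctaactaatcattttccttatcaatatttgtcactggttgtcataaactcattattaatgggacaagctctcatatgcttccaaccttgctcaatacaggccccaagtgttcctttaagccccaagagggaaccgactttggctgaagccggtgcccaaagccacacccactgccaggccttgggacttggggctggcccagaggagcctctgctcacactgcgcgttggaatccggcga
Slc25a13: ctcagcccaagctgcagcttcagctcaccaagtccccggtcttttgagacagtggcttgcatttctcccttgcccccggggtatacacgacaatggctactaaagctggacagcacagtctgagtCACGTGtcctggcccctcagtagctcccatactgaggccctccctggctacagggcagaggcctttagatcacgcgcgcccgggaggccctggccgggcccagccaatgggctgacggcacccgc
Slc25a36 held both elements, the cAMP response element ending 153 bases and the E box 181 bases before the start, without overlap. Slc25a13 held the E box alone, 119 bases before the start, and Slc25a12 held neither.

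Windows were given for 34 of the 44 carriers, 43 windows in all. Both strands were searched, and both letter strings read the same on either strand. TGACGTCA was in 2 of the 43 carrier windows, of Slc25a25 and Slc25a36, and in 1.55% of 32851 windows of all genes. CACGTG was in 8 windows, which belong to 7 carriers (Slc25a1, Slc25a13, Slc25a14, Slc25a15, Slc25a31, Slc25a33 and Slc25a36), and in 6.02% of all windows. AAGGTCA, the core read by estrogen-related receptors, was in 1 window, of Slc25a34, beside 4.08% of all windows. A match describes letters alone, and the tested carriers with the E box had log2 fold changes on either side of 0.

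The 2 aspartate/glutamate carriers of the malate-aspartate shuttle had log2 fold changes of opposite sign, and neither passed limma. Slc25a12 (aralar), the main form of heart and skeletal muscle, had signals of 5584.8, 5506.4 and 5738.7 in WT and 8192.8, 9035.2 and 6760.3 in Glut1-TG hearts. The groups did not overlap, and Glut1-TG array 3 was the nearest to WT. The log2 fold change was 0.50 (SE 0.11, 95% confidence interval 0.26 to 0.74), with an adjusted p of 0.080 that misses the threshold. Without Glut1-TG array 3 it was 0.62 (adjusted p = 0.026), and over all 16 alternatives the adjusted p ran from 0.018 to 0.41. Further probe sets of Slc25a12 gave 0.44, with groups apart, and 0.45, with overlapping groups (adjusted p = 0.41 and 0.44, limma over probe sets). Slc25a13 (citrin), the form best known from liver, had 3138.5, 2910.0 and 3432.4 in WT and 2401.3, 2374.9 and 2507.4 in Glut1-TG hearts. Each Glut1-TG array was below each WT array, with a log2 fold change of -0.38 (SE 0.09, adjusted p = 0.13), and 1 probe set read this gene. Centred on cardiomyocyte markers, Slc25a13 had -0.19 (adjusted p = 0.43) and no longer passed the study's thresholds.

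The log2 ratio of the Slc25a12 to the Slc25a13 signal within an array is not altered by a constant scaling of that array. It was 0.83, 0.92 and 0.74 in WT and 1.77, 1.93 and 1.43 in Glut1-TG arrays. The groups were apart by 0.88 (p = 0.1, exact permutation test over 20 groupings, two-sided, the smallest p that 3 arrays against 3 allow, 0.23 adjusted over 7 pairs of related carriers). Leaving out any 1 array gave 0.77 to 1.02. The ratio compares the signals with each other and does not say which of them differs, and the pair was chosen with earlier results of these data known.

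Glutamate is also carried alone by Slc25a22 and Slc25a18. Slc25a22 had 2667.8, 1635.8 and 1301.2 in WT and 2043.0, 1764.5 and 1419.3 in Glut1-TG hearts, with WT array 1 above all others and a log2 fold change of -0.05 (adjusted p = 0.96). Slc25a18, a dim member, had -0.37 (adjusted p = 0.76). In neither were the groups apart.

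Carriers of the di- and tricarboxylates had values on both sides of 0, none past limma. Slc25a11, the oxoglutarate/malate carrier that completes the shuttle, had signals of 16127, 13136 and 14630 in WT and 11549, 12248 and 11180 in Glut1-TG hearts. All Glut1-TG arrays were lower than all WT arrays, and the log2 fold change was -0.32 (SE 0.09, adjusted p = 0.21). Centred on cardiomyocyte markers it was -0.14, smaller by over 1.5 times and of the same sign. Slc25a1, the citrate carrier that exports citrate for cytosolic acetyl-CoA, had 284.8, 242.3 and 267.3 in WT and 316.7, 539.9 and 430.9 in Glut1-TG hearts. The groups did not overlap but Glut1-TG array 1 was close to WT array 1, with a log2 fold change of 0.67 (SE 0.24, 95% confidence interval 0.12 to 1.21, adjusted p = 0.35). Without 1 array this was 0.48 to 0.87. Slc25a10, the dicarboxylate carrier, had 497.4, 557.1 and 621.5 in WT and 489.7, 427.4 and 521.1 in Glut1-TG hearts. Those groups overlapped (log2 fold change -0.22, adjusted p = 0.66), and a further probe set of the gene had 0.25.

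**Figure D3:**
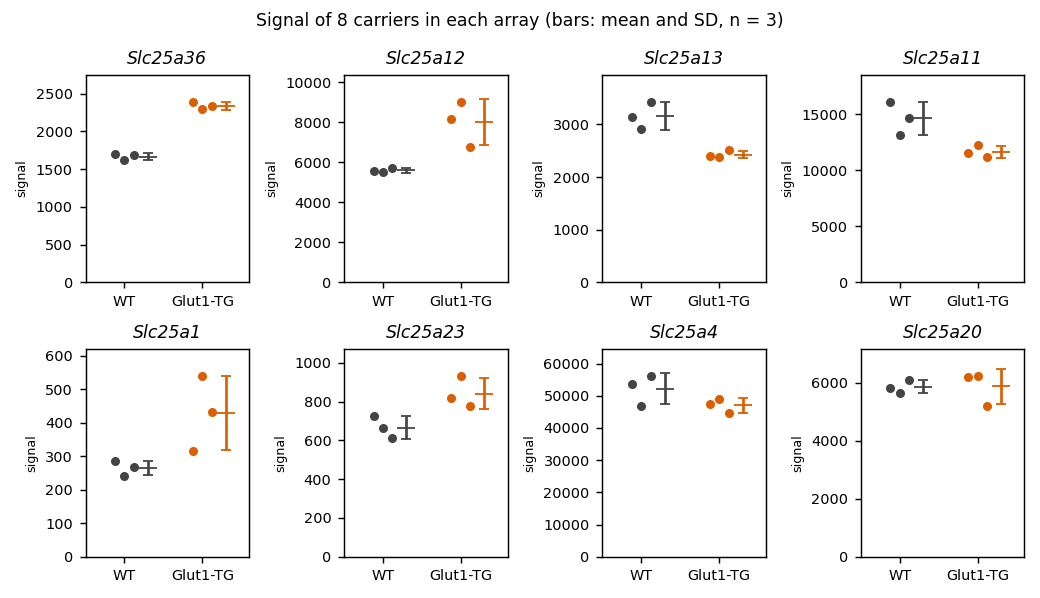
Signal of 8 carriers in each array (y axis from 0, scaled intensity; points are the 3 WT and 3 Glut1-TG arrays, bars the mean and SD). The groups are apart for Slc25a36, Slc25a12, Slc25a1 and Slc25a23, which were higher in Glut1-TG, and for Slc25a13 and Slc25a11, which were lower, and they overlap for Slc25a4 and Slc25a20.

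The enzymes on either side of these carriers were set beside them. Of the 4 malate-aspartate shuttle enzymes, 0 passed limma and 4 had log2 fold changes below 0 (median -0.15). Got1, the cytosolic aspartate aminotransferase, had the lowest (-0.30, adjusted p = 0.29), followed by Mdh1, the cytosolic malate dehydrogenase (-0.16, adjusted p = 0.64). Of 10 genes of citrate export and use, 2 rose and 0 fell, with a median of 0.19. The risers were Acly, which splits exported citrate into acetyl-CoA (1.21, adjusted p = 0.0066), and Acaca, which carboxylates that acetyl-CoA (1.40, adjusted p = 0.0056). In the same list 3 genes were below 0.

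Carriers that serve ATP supply had the brightest signals and small measured differences. Slc25a4 (ANT1), the ATP/ADP carrier of heart and muscle, had 53533, 46752 and 56160 in WT and 47427, 49053 and 44622 in Glut1-TG hearts. The groups overlapped, with a log2 fold change of -0.15 (95% confidence interval -0.36 to 0.07, adjusted p = 0.60). Its sign turned to 0.05 under quantile normalization and to 0.04 under centring on cardiomyocyte markers. All 4 probe sets of Slc25a4 were below 0, from -0.36 to -0.15. Slc25a5 (ANT2), the widespread form, had 18556, 15857 and 18829 against 19008, 18720 and 17703, an overlap with a log2 fold change of 0.06 (95% confidence interval -0.14 to 0.26, adjusted p = 0.84). Its 8 probe sets ran from -0.26 to 0.22.

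The log2 ratio of Slc25a4 to Slc25a5, unlike the signals themselves, kept the groups apart. It was 1.53, 1.56 and 1.58 in WT and 1.32, 1.39 and 1.33 in Glut1-TG arrays, a change of -0.21 (p = 0.1, exact permutation test, adjusted 0.23), and it ran from -0.23 to -0.19 without any 1 array. The change was smaller under quantile normalization (-0.14) and larger with all probe sets of a gene averaged (-0.29). The probe set used for Slc25a5 has a name ending in _x_at, a kind that can read related transcripts, and without such probe sets the change was -0.20. Slc25a3, the phosphate carrier, had 51869, 42657 and 48494 in WT and 43760, 43058 and 39694 in Glut1-TG hearts. It had a log2 fold change of -0.17 with overlapping groups (95% confidence interval -0.39 to 0.04, adjusted p = 0.53), which became 0.01 under either quantile normalization or centring on cardiomyocyte markers. Among 10 outer membrane channels and partners of ATP/ADP exchange, such as the VDAC channels and ATP synthase subunits, 0 passed limma, 8 were below 0 and the median was -0.05. The largest values were those of Ckmt1, a mitochondrial creatine kinase (0.31, adjusted p = 0.79, overlapping groups), and Tspo, an outer membrane protein (0.25, adjusted p = 0.45, groups apart).

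Of the ATP-Mg/phosphate carriers, which adjust the adenine nucleotide content of the matrix, 3 of 5 were tested and 3 had log2 fold changes above 0. Slc25a23 had 725.1, 664.3 and 610.7 in WT and 816.5, 932.8 and 776.7 in Glut1-TG hearts. The groups did not overlap (log2 fold change 0.34, SE 0.14, adjusted p = 0.41). Slc25a24 had 0.13 with overlapping groups. Slc25a25 had 0.09 by the probe set used, while a second probe set above the filter had 354.4, 429.3 and 308.1 in WT and 50.8, 97.6 and 313.2 in Glut1-TG hearts. There Glut1-TG arrays 1 and 2 were far below WT and array 3 was within the WT range, with a log2 fold change of -1.64 (adjusted p = 0.36, limma over probe sets). Among probe sets above the filter, this was the widest split of any carrier.

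Slc25a20, the carnitine/acylcarnitine carrier that brings fatty acids in for oxidation, had 5828.6, 5655.9 and 6106.7 in WT and 6208.3, 6231.1 and 5189.0 in Glut1-TG hearts. Glut1-TG arrays lay on both sides of the WT arrays, and the log2 fold change of -0.0014 had a 95% confidence interval of -0.21 to 0.21 (adjusted p = 0.998). A second probe set gave -0.01. Of 5 tested enzymes and transporters of the carnitine shuttle, 0 passed limma and the median was 0.17. Slc22a5, the carnitine uptake transporter, had 0.29 (adjusted p = 0.37) and Crat, the carnitine acetyltransferase of the matrix, had -0.22 (adjusted p = 0.38), both with groups that did not overlap.

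Slc25a44, the carrier that brings branched-chain amino acids into mitochondria, had 746.5, 749.2 and 589.2 in WT and 572.8, 512.3 and 637.4 in Glut1-TG hearts. The groups overlapped, with a log2 fold change of -0.27 (95% confidence interval -0.63 to 0.09, adjusted p = 0.57) and 0.14 and -0.04 by further probe sets. Of 7 genes of the first oxidation steps of these amino acids and their regulators, 4 fell (Bckdha, Bckdhb, Dbt and Ppm1k), 7 were below 0 and the median was -0.96. The 7 include Bcat2, which acts on the amino acids themselves and missed limma (-0.96, adjusted p = 0.063). They also include Bckdk, the kinase of the dehydrogenase and not an oxidation step (-0.23, adjusted p = 0.41). That list is the pathway the study chose on these samples, so its count is not independent evidence of direction. Bckdhb, a subunit of the dehydrogenase, fell by 2.0 on the log2 scale (adjusted p = 0.00016), and Ppm1k, the phosphatase that activates the dehydrogenase, fell by 1.67 (adjusted p = 0.0014). No test of the difference between Slc25a44 and these genes was run.

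The other amino acid carriers gave no call. Slc25a38, the carrier that brings in glycine for haem synthesis, had -0.34 (adjusted p = 0.52), with 1424.6, 954.8 and 1393.1 in WT and 1165.0, 846.8 and 939.7 in Glut1-TG hearts, an overlap of WT array 2 with Glut1-TG array 1 alone. Slc25a29, a carrier of basic amino acids, had -0.14 (adjusted p = 0.75). Its 4 probe sets above the filter were all below 0, from -0.44 to -0.08. The ornithine carriers of the urea cycle, Slc25a15 and Slc25a2, had -0.08 and 0.13.

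Among 8 carriers of other nucleotides and cofactors, 1 rose (Slc25a36) and 6 were above 0, with a median of 0.22. Slc25a42, the coenzyme A carrier, had 3304.3, 2952.6 and 2701.0 in WT and 3775.3, 3717.3 and 3094.1 in Glut1-TG hearts. WT array 1 was above Glut1-TG array 3, so the groups overlapped (log2 fold change 0.24, 95% confidence interval -0.01 to 0.49, adjusted p = 0.46). A second probe set of Slc25a42 had -0.09, and the average of both was 0.08. Slc25a51, the NAD carrier of mammals, had 0.02 (95% confidence interval -0.20 to 0.24). Slc25a26, which imports S-adenosylmethionine, had -0.36 with Glut1-TG signals spread from 400.0 to 946.6 (adjusted p = 0.67), and 0.05 by a second probe set. Slc25a16, Slc25a17, a peroxisomal member of the family, and Slc25a32, which carries folate, had 0.27, 0.23 and 0.20, with adjusted p from 0.65 to 0.89.

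The mitoferrins Slc25a28 and Slc25a37 import iron, and Slc25a39 and Slc25a40 import glutathione. Slc25a28, the form of non-erythroid tissue, had 1026.1, 1142.6 and 1112.0 in WT and 1253.7, 1261.5 and 1224.7 in Glut1-TG hearts. Its groups did not overlap, but the gap was small (log2 fold change 0.19, 95% confidence interval -0.04 to 0.42, adjusted p = 0.53). Slc25a37, the erythroid form, had -0.002, with Glut1-TG array 3 at 630.7 and all other arrays between 397.0 and 493.5. Slc25a39 had -0.04 (95% confidence interval -0.22 to 0.14) and Slc25a40 -0.24 (adjusted p = 0.67), both with overlapping groups.

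Slc25a27 and Slc25a30, named for their likeness to uncoupling proteins, had -0.06 and 0.04. Slc25a14, the other such gene, was under the filter on mean signal and was left out of the main test, and its 128.0, 170.2 and 196.7 in WT and 106.8, 45.2 and 37.5 in Glut1-TG hearts did not overlap. It passed the study's lower threshold when no filter was applied. The other carriers under the filter were Slc25a31, the testis form of the ATP/ADP carrier, with signals of 3.9 to 80.3, Slc25a41 with 5.5 to 20.2 and Slc25a54 with 6.9 to 120.9. These 4 entered a fit only under the alternative without a filter.

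Of 7 carriers grouped as without an assigned substrate, 0 passed limma and 4 were above 0. Slc25a47 had 410.5, 306.4 and 281.1 in WT and 552.0, 541.9 and 383.3 in Glut1-TG hearts, where Glut1-TG array 3 fell below WT array 1 (log2 fold change 0.57, 95% confidence interval 0.05 to 1.08, adjusted p = 0.40). Slc25a45 had 763.7, 610.4 and 755.3 against 955.2, 970.2 and 778.4. Its groups did not overlap, by a narrow gap between 763.7 in WT array 1 and 778.4 in Glut1-TG array 3 (log2 fold change 0.34, adjusted p = 0.43). Slc25a35 had -0.46 with overlapping groups (adjusted p = 0.59), and -0.195 without Glut1-TG array 3, where its signal was 167.4. Slc25a34, Slc25a46, an outer membrane protein of mitochondrial dynamics, Slc25a48 and Slc25a53 had -0.18, -0.12, 0.27 and 0.09, with adjusted p from 0.69 to 0.92.

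**Figure D4:**
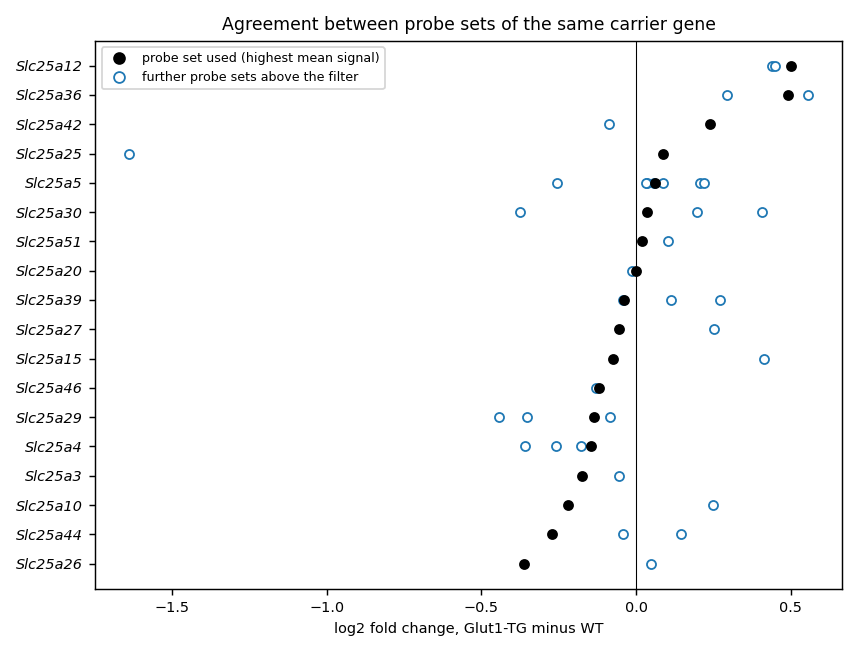
Log2 fold change (x axis, Glut1-TG minus WT) of every probe set above the filter for the 18 carriers with more than 1 such probe set, with the one used in black and the others as open circles. All probe sets of Slc25a12 and Slc25a36 lie between 0.30 and 0.56, and Slc25a25 has one at -1.64.

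Several probe sets of 1 gene bind different stretches of its transcripts and serve as a check within the same arrays. Of the 18 carriers with more than 1 probe set above the filter, 8 had log2 fold changes of the same sign in all of them, among them Slc25a12, Slc25a36, Slc25a4, Slc25a3 and Slc25a29. The other 10 had both signs. Probe sets of Slc25a30 ran from -0.38 to 0.41 and those of Slc25a15 from -0.08 to 0.41.

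**Figure D5:**
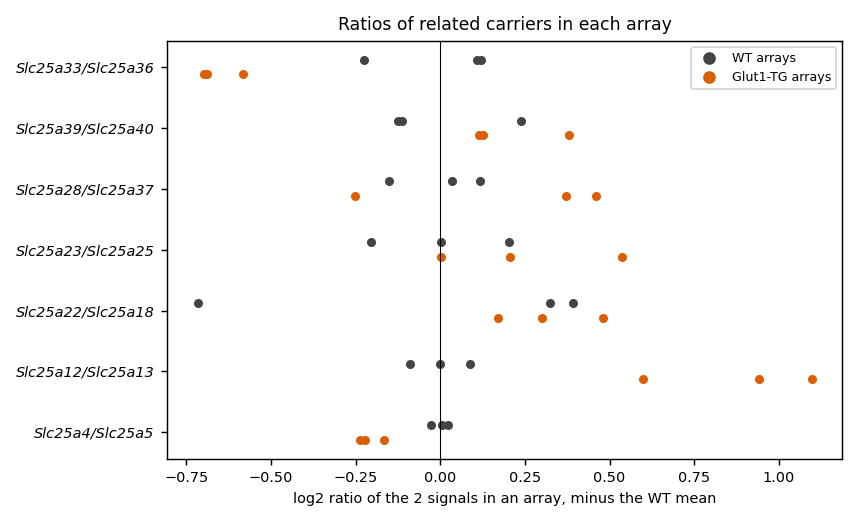
Log2 ratio of 7 pairs of related carriers in each array, as the difference from the WT mean of that pair (x axis; WT dark grey, Glut1-TG orange, 3 arrays each). The groups are apart for Slc25a12/Slc25a13, Slc25a4/Slc25a5 and Slc25a33/Slc25a36, with changes of 0.88, -0.21 and -0.66, and overlap for the other 4 pairs.

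Of the 7 pairs, 3 had ratios that did not overlap between the groups. Random group labels would separate a given pair with a probability of 0.1, and no share over other gene pairs was computed. The pairs were chosen with earlier results of these data known, so the count is a description alone. The third, Slc25a33 to Slc25a36, had -0.09, -0.10 and -0.44 in WT and -0.91, -0.79 and -0.90 in Glut1-TG arrays (change -0.66, p = 0.1, exact permutation test, adjusted 0.23). It holds the carrier called by limma and is not separate from that call. The 4 others, the glutamate carriers, the ATP-Mg/phosphate carriers, the mitoferrins and the glutathione carriers, changed by 0.19 to 0.32 with overlapping groups and exact p from 0.2 to 0.7.

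Family members that carry other symbols and transporters of other families were measured too. Ucp3, the uncoupling protein of muscle, had 1168.1, 1847 and 1355.7 in WT and 1948.5, 2819.6 and 2785.5 in Glut1-TG hearts. The groups did not overlap, though WT array 2 came near Glut1-TG array 1 (log2 fold change 0.80, SE 0.19, adjusted p = 0.12). Mtch2, a carrier-like protein of the outer membrane, had -0.29 (adjusted p = 0.23) with groups apart. Of 15 inner membrane transporters of other families, 0 passed limma, 8 were above 0 and the median was 0.01. Mpc1, a subunit of the pyruvate carrier, had -0.29 (adjusted p = 0.32, groups apart), and the largest values in either direction were those of the sideroflexins Sfxn2 (-0.62) and Sfxn4 (0.55), both with overlapping groups.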

How the data were processed

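Total RNA of 3 WT and 3 Glut1-TG left ventricles was extracted with Trizol, labelled as biotinylated cRNA and hybridised to Affymetrix mouse arrays by the authors. The deposited table holds signal intensity per probe set on a linear scale, made with GCOS (per the submitters' processing notes; version not given in the sources used here), without detection calls. Trimmed of 2% of probe sets at each end, every array had a mean of 500, so the values were taken as scaled by the authors and were not scaled again. Of 45101 probe sets, 64 controls were left out. The labels give no batch, and 0 columns were of other samples.

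Of the remaining 45037 probe sets, 34945 had 1 symbol in the platform annotation, 932 had several and 9160 none. All 44 carriers matched by Entrez identifier in the RefSeq table, and 1 further Slc25a probe set with several symbols was left out. Values under 1 (48 in all) were set to 1 before log2. Probe sets in the lowest 40% by mean log2 signal, under a signal of 115, were not tested. Of the probe sets used for the carriers, 5 have names ending in _x_at or _s_at.

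Glut1-TG was compared with WT in R 4.3.3 with limma 3.58.1 (lmFit, eBayes with trend, no covariates), fitted to all 13178 genes with Benjamini-Hochberg adjustment at 0.05. The study's thresholds used the methods' t-test, which its methods name in general. The p-values cover the spread between 3 hearts a group, and a p that misses the threshold does not show that values did not differ. Ratios of related carriers had an exact permutation test over the 20 groupings. The number of arrays limits the precision. The procedure was tested on simulated data. Any carrier could be named; values per array were given for those at an unadjusted p under 0.05 and for a set of carriers of central metabolism, and those of Slc25a14, Slc25a28, Slc25a37, Slc25a38, Slc25a26 and the second Slc25a25 probe set were added after the values were seen. From other lists, genes past limma or with the 2 largest changes were named. Slc2a1, Mpc1, Bcat2, Bckdk and the other adipocyte and atrial markers were likewise added after the values were seen. The carriers, the lists of enzymes and markers and the pairs were chosen with earlier results of these data known.

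The alternatives were quantile normalization, centring on cardiomyocyte markers, an offset of 50, no filter, a filter keeping the upper 40%, averaging all probe sets per gene, leaving out _x_at and _s_at probe sets, leaving out each array, a block for the replicate number, eBayes with no trend, and the methods' t-test with adjustment or on linear signal.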

Additional observations from a re-analysis of the deposited data

How the results depend on the processing

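The count of carriers that rose by limma was 1, and the count that fell was 0 under every alternative run. The first was 2 under quantile normalization and under centring on cardiomyocyte markers (Slc25a12 and Slc25a36), 0 with all probe sets averaged per gene, with no intensity trend and by the adjusted methods' t-test, and 0 to 1 without 1 array, where the 1 was Slc25a12 without Glut1-TG array 3. Slc25a36 passed under 6 of 16 alternatives. At the study's thresholds, 2 were lower and 4 higher. Quantile normalization gave 1 and 2, centring gave 0 and 9, and leaving out 1 array gave 1 to 3 and 1 to 5. The lowest lower count came without WT array 1 or 3 or Glut1-TG array 1 or 3, and the lowest higher count without WT array 2. The median of the carriers moved from -0.002 to 0.18 under centring, and that of all genes to 0.20. The cause of the other changes was not tested.

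The deviations of same-numbered arrays had correlations of 0.08, -0.03 and 0.06, beside -0.11 to 0.06 for arrays of different number. These values show no sign of pairing by number. Weak correlations over so few arrays cannot exclude it, and whether the hearts were paired is not known from the labels. With the replicate block, 0 carriers rose by limma (Slc25a36 had an adjusted p of 0.087), and 1 was lower and 2 were higher at the study's thresholds.

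No carrier past limma turned direction. Log2 fold changes that turned sign under centring were Slc25a15 (0.11), Slc25a20 (0.18), Slc25a22 (0.14), Slc25a27 (0.13), Slc25a29 (0.049), Slc25a3 (0.013), Slc25a33 (0.018), Slc25a34 (0.0014), Slc25a37 (0.18), Slc25a39 (0.15), Slc25a4 (0.040) and Slc25a46 (0.065). Under quantile normalization they were Slc25a20 (0.062), Slc25a25 (-0.010), Slc25a3 (0.013), Slc25a39 (0.058) and Slc25a4 (0.048). With all probe sets averaged they were Slc25a10 (0.014), Slc25a15 (0.17), Slc25a25 (-0.78), Slc25a27 (0.098) and Slc25a39 (0.075). The offset of 50 turned Slc25a37 (0.00034), and leaving out _x_at and _s_at probe sets turned Slc25a26 (0.046). Without 1 array, 13 carriers took both signs: Slc25a17 from -0.073 to 0.45, Slc25a2 from -0.19 to 0.44, Slc25a20 from -0.046 to 0.086, Slc25a22 from -0.28 to 0.24, Slc25a24 from -0.029 to 0.24, Slc25a25 from -0.016 to 0.25, Slc25a27 from -0.20 to 0.090, Slc25a30 from -0.053 to 0.12, Slc25a32 from -0.023 to 0.46, Slc25a37 from -0.21 to 0.12, Slc25a5 from -0.017 to 0.11, Slc25a51 from -0.054 to 0.078 and Slc25a53 from -0.14 to 0.26. Dim carriers, such as Slc25a17 and Slc25a32, lie near the filter and have the largest errors.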
